A study of Mus musculus with 43 samples.

Results

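The kinases described here are 10 enzymes that phosphorylate splicing factors and other nuclear proteins: the CDC2-like kinases Clk1, Clk2, Clk3 and Clk4, the SR protein kinases Srpk1 and Srpk2, the dual-specificity tyrosine-regulated kinases Dyrk1a, Dyrk1b and Dyrk3, and Prpf4b, the PRP4 kinase. They were taken by gene symbol from the 26218 symbols of both deposited expression tables. Each symbol stood on a single line, and all 10 passed the filter on low values in each of the 3 experimental systems. Polyadenylated RNA of mouse embryonic fibroblasts (MEF) was sequenced in 43 libraries. The siRNA system paired control siRNA and Son siRNA, each with the solvent DMSO and with tunicamycin (4 groups of 4 libraries). The CRISPR activation (CRISPRa) system did the same with single guide RNAs (sgRNA), control and Son (4 groups of 3 libraries). In the drug system, wild-type (WT) cells were kept for 24 h in DMSO or in 1 of 4 compounds, which were nintedanib and proflavine hemisulfate at 3 µM and ponatinib and pyrvinium pamoate at 1 µM (5 groups of 3 libraries). The labels call these cells a line, and do not say whether libraries came from separate cultures or clones. No dose or duration of tunicamycin and no description of the activator is given in the sources used here.

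Serine- and arginine-rich (SR) proteins bind pre-mRNA and recruit the spliceosome. SRPK enzymes phosphorylate them mainly in the cytoplasm, which lets transportin 3 carry them into the nucleus, where they gather in nuclear speckles. CLK enzymes add further phosphates in the nucleus and release SR proteins from speckles to sites of splicing. DYRK3 dissolves speckles and other condensates when cells divide, DYRK1A and DYRK1B hold cells in quiescence, and PRP4 phosphorylates spliceosome proteins before splicing begins. Son is a scaffold of the speckle. Tunicamycin blocks N-linked glycosylation and so stresses the endoplasmic reticulum. Nintedanib and ponatinib inhibit tyrosine kinases, proflavine intercalates into DNA, and pyrvinium is an anthelmintic dye.

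In the GENCODE annotation of GRCm38 the genes lie apart on 9 chromosomes. The CLK genes are at chr1:58410189-58424066 (Clk1, minus strand), chr3:89164795-89176921 (Clk2, plus), chr9:57750624-57765860 (Clk3, minus) and chr11:51261730-51281766 (Clk4, plus). Srpk1 is at chr17:28587648-28622709 and Srpk2 at chr5:23503264-23684617, both on the minus strand. The DYRK genes are at chr16:94570010-94695517 (Dyrk1a, plus), chr7:28179469-28187294 (Dyrk1b, plus) and chr1:131127455-131138340 (Dyrk3, minus), and Prpf4b is at chr13:34875302-34906064 (plus). Their annotated RNAs are varied: Clk1 has 13 transcripts, of which 1 codes for protein and 7 retain an intron, and Clk4 has 14, of which 4 code for protein and 7 retain an intron. A retained-intron transcript is annotated for 8 of the 10 kinases, against 58.5% of 11917 tested genes matched by symbol, and Dyrk1b and Dyrk3 are the ones without. The gene-level values used here do not separate these transcripts. Clk1 and Clk4, the closest relatives, shared 36 of 8327 and 6051 stretches of 31 bases, which is the only overlap of that length between CLK genes. On the opposite strand Clk4 overlaps BC049762 by 1317 bases, Clk3 overlaps Edc3 by 1876, Srpk2 overlaps Kmt2e by 972 and Prpf4b overlaps Gm36839 by 131. The libraries were stranded, but it is not stated whether the authors counted by strand, so values of these 4 genes are uncertain in part. Srpk1 shared the largest part of its sequence with other genes (7.07% of its stretches of 31 bases), against 0 to 2.34% for the other kinases.

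RefSeq (GRCm38.p6) gives promoter stretches of 300 bases, from 250 before to 50 after the start site, for 9 of the 10 kinases. The stretches of Clk4 and of Dyrk1b are shown because tunicamycin raised Clk4 the most and lowered Dyrk1b in each of its 4 arms. Srpk1 and Dyrk1a were raised in all 4 arms too, and their stretches are not shown. Another stretch of Dyrk1b, chr7:28180066-28180365, held none of the sites named below and is not shown either. Capitals mark a cyclic AMP response element (TGACGTCA) in Clk4, and in Dyrk1b a CCAAT box read on the other strand followed by a pair of E-boxes (CACGTG). The lines read 5′ to 3′ along the gene, chr11:51262864-51263163 (plus) for Clk4 and chr7:28179233-28179532 (plus) for Dyrk1b.
Clk4: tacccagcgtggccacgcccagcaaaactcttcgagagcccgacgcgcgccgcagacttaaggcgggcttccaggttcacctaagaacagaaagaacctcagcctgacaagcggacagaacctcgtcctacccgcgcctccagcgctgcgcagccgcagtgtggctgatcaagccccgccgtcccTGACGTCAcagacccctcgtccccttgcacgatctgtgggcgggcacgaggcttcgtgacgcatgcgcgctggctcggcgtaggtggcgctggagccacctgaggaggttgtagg
Dyrk1b: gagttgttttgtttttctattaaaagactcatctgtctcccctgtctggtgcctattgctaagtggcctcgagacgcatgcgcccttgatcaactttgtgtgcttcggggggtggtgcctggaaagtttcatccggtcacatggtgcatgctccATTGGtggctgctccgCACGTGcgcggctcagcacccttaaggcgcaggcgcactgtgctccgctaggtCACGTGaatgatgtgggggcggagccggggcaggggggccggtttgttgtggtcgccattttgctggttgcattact
The Clk4 element begins 65 bases before the start site, and the Dyrk1b E-boxes begin 80 and 27 bases before it. The Clk4 stretch also holds the 5′ end of BC049762, a gene on the opposite strand (chr11:51253651-51263046), so the element may not belong to Clk4 alone. On both strands, TGACGTCA was found in 1.79% of 32851 RefSeq promoter stretches, CACGTG in 7.15% and CCAAT in 37.4%. Clk1 has no stretch here. Among the other 9 kinases Clk4 was the only one with TGACGTCA, Clk2 and Dyrk1b had CACGTG, and Clk2, Srpk2, Dyrk1a and Dyrk1b had CCAAT in at least 1 stretch. None of the 9 held TGACGTGG (0.676% of all stretches) or TGATGCAA (0.895%), nor the ER stress response element (0.119%). A match shows only that the letters are there.

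Values are FPKM in the siRNA and CRISPRa systems and TPM in the drug system, both scaled to transcript length and library. How many reads stand behind a value is unknown. The FPKM of a library summed to 392308 to 422871 in the siRNA system and to 380638 to 498414 in the CRISPRa system. In the latter, 2 libraries labelled Son sgRNA held the extremes, library C in DMSO (498414) and library B in tunicamycin (380638), and results of that system are also given without both. Of 10 fibroblast markers, 5 to 8 had a mean of at least 1, depending on the group. Col1a1, Col3a1, Pdgfrb, Prrx1 and Vim were present throughout, whereas Lum and Thy1 were at or near 0 in all 3 systems (group means at most 0.018 and 0.121). Group means of Col1a2 were also low, at 0.101 to 0.267 FPKM in the CRISPRa system and 0.579 to 1.18 FPKM in the siRNA system. In the drug system they ran from 0.498 to 10.9 TPM. Pdgfra had 0.592 to 0.901 FPKM in the siRNA system. Summed fibroblast markers ran from 5143 to 5178 TPM in DMSO and fell to 3263 to 3612 with nintedanib, ponatinib and proflavine and to 910 to 1071 with pyrvinium. Markers of macrophages, endothelium, epithelium and neural cells summed to at most 19.2, 2.26, 44.4 and 29.0 in any library, mostly from Cd68, Kdr, Krt18 and Tubb3. The part of these shifts in the results below was not tested, and in bulk RNA fewer cells of a type and less RNA per cell cannot be told apart. As a check of the labels, Son siRNA lowered Son from 43.5 ± 0.979 to 21.8 ± 0.970 FPKM in DMSO (SD, n = 4). Under the Son sgRNA label in DMSO, Son stood at 51.9, 44.6 and 29.8 FPKM against 47.4 ± 0.971 FPKM in 3 control libraries, so that label is used as a label only.

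All 10 kinases were moderately expressed in untreated cells. With control siRNA in DMSO the levels ran from 30.1 ± 1.60 FPKM for Srpk1 through 24.4 ± 0.540 for Clk1, 18.4 ± 0.467 for Prpf4b and 16.8 ± 0.623 for Clk3 to 8.69 ± 0.773 for Dyrk3 and 6.38 ± 0.684 for Dyrk1b (SD, n = 4). Between them lay Clk4 at 12.8 ± 0.509, Dyrk1a at 11.9 ± 0.354, Clk2 at 11.7 ± 0.602 and Srpk2 at 10.2 ± 0.201 FPKM. The libraries of Clk4, Dyrk1a and Clk2 overlapped, so their order is not set by these data. With control sgRNA in DMSO Clk1 and Srpk1 were again highest, at 25.1 ± 0.498 and 24.9 ± 0.908 FPKM with overlapping libraries, and Dyrk3 was lowest at 3.95 ± 0.221 FPKM (n = 3). Dyrk1b stood at 12.95 ± 0.620 FPKM there. In WT cells with DMSO, Clk1 (70.3 ± 2.40 TPM), Clk3 (64.5 ± 2.30) and Srpk1 (56.9 ± 1.30) led, and Dyrk3 was lowest at 7.91 ± 0.346 TPM. Clk1 and Srpk1 were thus among the 3 highest, and Dyrk3 among the 2 lowest, in the controls of each system.

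**Figure D1:**
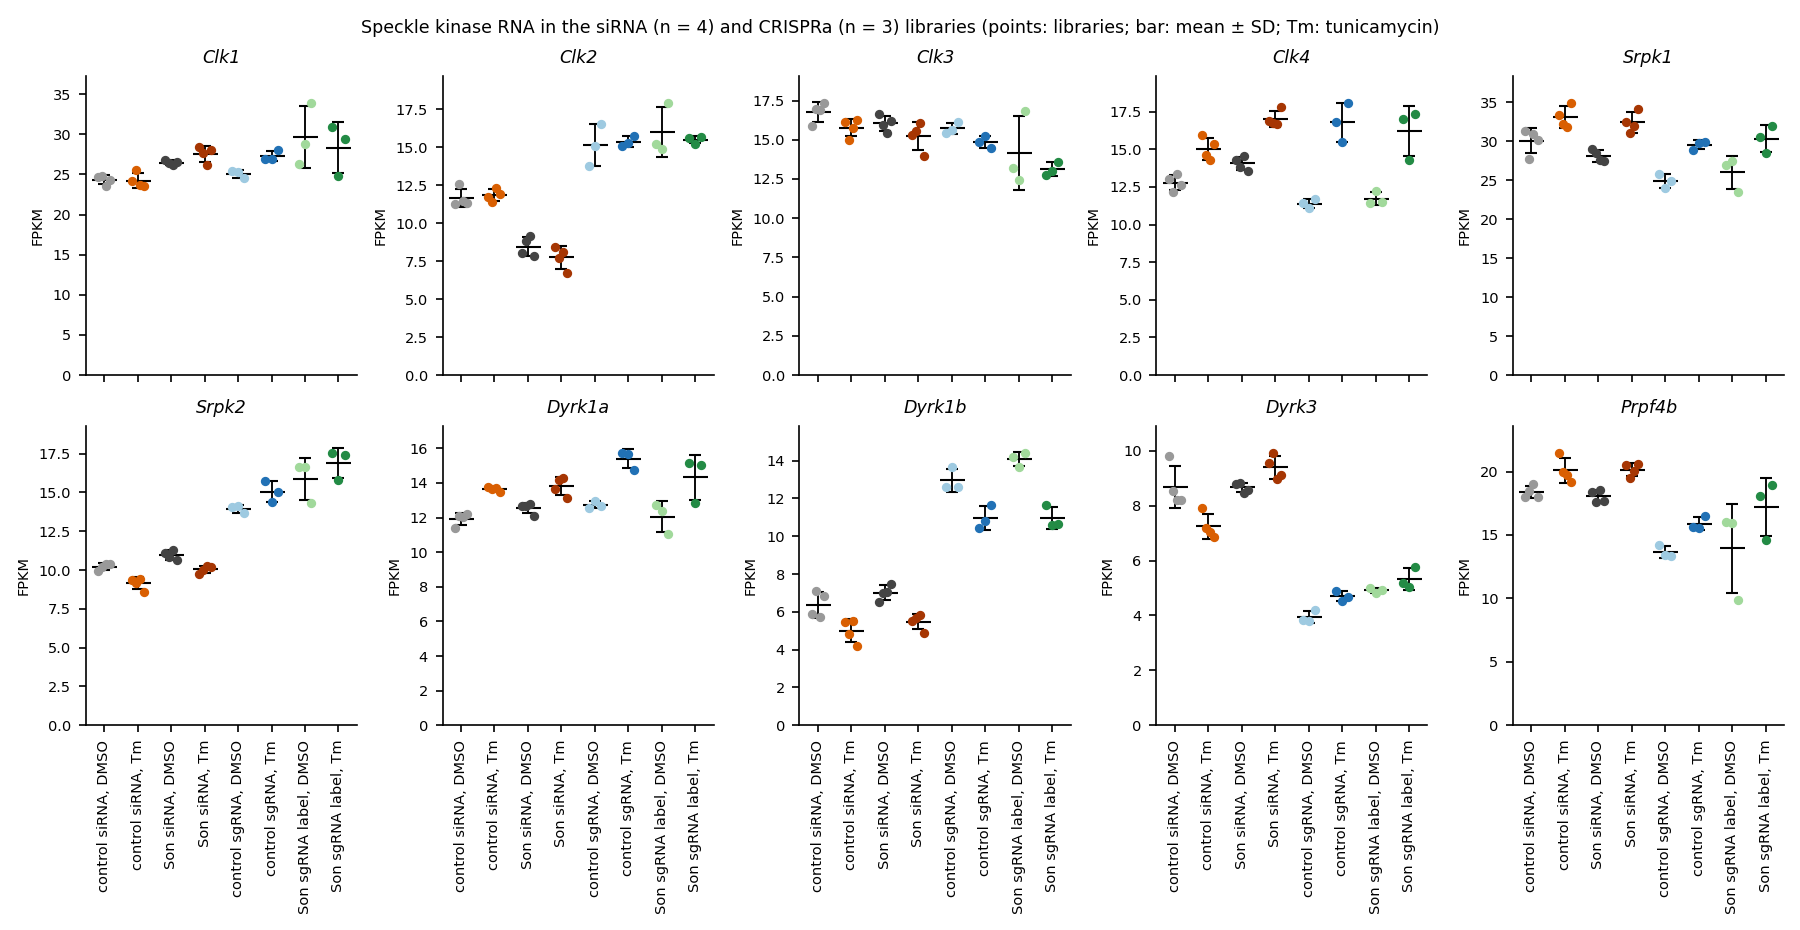
FPKM of the 10 kinases in each library of the siRNA system (n = 4 per group) and the CRISPRa system (n = 3), with bars for mean ± SD and Tm for tunicamycin. Clk2 is lower in all 8 Son siRNA libraries than in any control siRNA library, Clk4 is higher with tunicamycin than with DMSO within each arm, and Dyrk3 moves in opposite directions with tunicamycin in the control siRNA and control sgRNA arms.

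Clk2 was lower and Clk1, Clk4 and Srpk2 were slightly higher with Son siRNA than with control siRNA. Whether the loss of Son itself brought these changes was not tested. In DMSO 3 of the 10 kinases rose and 1 fell at an adjusted p under 0.05, when 36.0% of 10883 genes were called. In tunicamycin 4 rose and 1 fell, when 51.0% were called. The median log2 fold change of the kinases was 0.03 in DMSO and 0.07 in tunicamycin, against 0.025 and 0.04 over all genes. These comparisons share no libraries with each other. Beside them, Cd68 fell by 0.19 in DMSO and by 0.485 in tunicamycin on the log2 scale, Tubb3 rose by 0.31 in DMSO, and 1 of 6 fibroblast markers rose and none fell in each, and their part was not tested.

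Among the CLK genes, Clk2, a speckle kinase that phosphorylates SR proteins, had 11.26, 12.55, 11.46 and 11.35 FPKM in the control libraries A to D in DMSO. With Son siRNA it had 8.04, 8.82, 9.12 and 7.82 FPKM. All Son siRNA libraries were below all controls, and the group mean fell by 27.5% (a log2 fold change of −0.42 with SE 0.0579 and adjusted p = 3.16e-05). With tunicamycin present the levels were 11.7, 11.4, 12.3 and 11.9 FPKM with control siRNA and 8.45, 7.73, 8.07 and 6.70 FPKM with Son siRNA (−0.56, SE 0.0579, adjusted p = 7.75e-07). Clk2 thus fell with Son siRNA in both media, without overlap. Its relatives Clk1 and Clk4 went up. Clk1 rose from 24.4 ± 0.540 to 26.5 ± 0.301 FPKM in DMSO (0.11, adjusted p = 0.00817) and from 24.2 ± 0.931 to 27.6 ± 0.960 in tunicamycin (0.18, adjusted p = 0.000149). Clk4 rose from 12.8 ± 0.509 to 14.1 ± 0.424 FPKM in DMSO (0.13, adjusted p = 0.0135) and from 15.04 ± 0.742 to 17.0 ± 0.537 in tunicamycin (0.17, adjusted p = 0.00118). Each of these rises was without overlap of the libraries and under 14% of the control mean. Clk3 did not pass the test, with log2 fold changes of −0.06 and −0.05 (adjusted p = 0.244 and 0.309).

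Of the SRPK genes Srpk2 rose from 10.2 ± 0.201 to 11.0 ± 0.303 FPKM in DMSO (0.09, SE 0.0321, adjusted p = 0.033) and from 9.15 ± 0.392 to 10.1 ± 0.228 FPKM in tunicamycin (0.13, SE 0.0321, adjusted p = 0.00382). The call in DMSO was lost without control library A or B or Son siRNA library A, B or C (0.08 to 0.10, adjusted p = 0.0527 to 0.0972). Srpk1 stood at 30.1 ± 1.60 and 28.2 ± 0.729 FPKM in DMSO (−0.09, adjusted p = 0.0841) and was called lower without control library B (−0.13, adjusted p = 0.0147). Among the DYRK genes and Prpf4b, Dyrk3 in tunicamycin was the only call. It had 7.91, 7.19, 7.04 and 6.86 FPKM with control siRNA and 9.56, 9.92, 8.97 and 9.13 FPKM with Son siRNA, a rise of 29.6% (0.33, SE 0.0507, adjusted p = 4.57e-05). In DMSO Dyrk3 was at 8.69 ± 0.773 and 8.67 ± 0.165 FPKM (0.00, SE 0.0507, 95% interval −0.11 to 0.11, adjusted p = 0.996). Dyrk3 was therefore higher with Son siRNA where tunicamycin was present, while in DMSO its libraries overlapped. Dyrk1a, Dyrk1b and Prpf4b overlapped between Son and control siRNA in both media, with log2 fold changes from −0.02 to 0.12.

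Tunicamycin raised Clk4, Srpk1 and Dyrk1a and lowered Dyrk1b in all 4 arms. With control siRNA 4 kinases rose and 3 fell (69.0% of all genes called), and with Son siRNA 4 rose and 2 fell (67.2%). With control sgRNA 4 rose and 1 fell (38.3% of 11218 genes called), and in libraries labelled Son sgRNA 3 rose and 1 fell (49.4%). The share of kinases called in the siRNA arms is therefore about that of all genes. Each of these comparisons reuses libraries of the Son comparisons. Fibroblast markers moved along: all 6 tested fell in both siRNA arms (summed 2100 to 2169 FPKM in control siRNA DMSO libraries and 1203 to 1522 with tunicamycin), while 1 of 7 rose and 3 fell with control sgRNA (none and 4 after median-ratio scaling, which divides each library by the median of its gene ratios) and 1 rose and 5 fell under the Son sgRNA label. Of other cell types, the neural marker Tubb3 rose by 1.37, 1.08 and 0.57 on the log2 scale with control siRNA, Son siRNA and control sgRNA. The macrophage marker Cd68 fell by 0.14, 0.44 and 0.51 with control siRNA, Son siRNA and the Son sgRNA label, and the epithelial marker Krt18 fell by 0.28 with control siRNA. The part of these markers in the changes was not tested. Son fell with tunicamycin from 43.5 ± 0.979 to 36.0 ± 0.908 FPKM with control siRNA (−0.265, limma adjusted p = 3.29e-05). With Son siRNA it fell from 21.8 ± 0.97 to 15.4 ± 1.14 FPKM (−0.471, adjusted p = 6.13e-08). It was not called in the CRISPRa arms. With control sgRNA it was called with only those groups fitted (−0.156, adjusted p = 0.00172) and without both extreme libraries (adjusted p = 0.0198). Whether the fall of Son had a part here was not tested.

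Clk4 rose from 12.8 ± 0.509 to 15.04 ± 0.742 FPKM with control siRNA (0.22, SE 0.0373, adjusted p = 6.27e-05) and, where Son had been lowered, from 14.1 ± 0.424 to 17.0 ± 0.537 (0.26, SE 0.0373, adjusted p = 1.09e-05). In the control sgRNA arm it had 11.4, 11.1 and 11.7 FPKM in DMSO and 16.8, 15.5 and 18.1 in tunicamycin, a rise of 47.4% (0.52, SE 0.0747, adjusted p = 0.00025). Libraries labelled Son sgRNA had 11.4, 12.2 and 11.5 FPKM in DMSO and 17.0, 14.3 and 17.3 in tunicamycin (0.43, SE 0.0747, adjusted p = 0.000603). Clk4 was the most strongly raised of the 10 in all 4 arms, always without overlap. Clk1, its nearest relative, did not pass the test in any arm, with log2 fold changes of −0.01, 0.06, 0.12 and −0.06 in the same order. In the control sgRNA arm its libraries did not overlap (24.5 to 25.4 FPKM in DMSO and 26.9 to 28.02 in tunicamycin, adjusted p = 0.338). It was called there with only those groups in the fit (adjusted p = 0.00782) and without both extreme libraries (adjusted p = 0.0223), but under median-ratio scaling its estimate was 0.05 (adjusted p = 0.611). Under the Son sgRNA label its sign turned without both extreme libraries, where it was called higher (0.13, adjusted p = 0.0418). With Son siRNA it was called under median-ratio scaling (0.10, adjusted p = 0.0173), and without tunicamycin library C (0.08, adjusted p = 0.0297). Clk2 and Clk3 were not called in any arm (−0.12 to 0.03 and −0.09 to −0.07). Clk3 with control siRNA was called without control library A in DMSO (−0.11, adjusted p = 0.0299) and without Son siRNA library D in tunicamycin (−0.08, adjusted p = 0.0358). With Son siRNA, Clk2 was called without Son siRNA library D in DMSO (−0.15, adjusted p = 0.0442) or A in tunicamycin (−0.15, adjusted p = 0.0324).

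Srpk1 rose from 30.1 ± 1.60 to 33.1 ± 1.38 FPKM with control siRNA (0.14, adjusted p = 0.00612), and by 0.20, 0.24 and 0.22 on the log2 scale in the Son siRNA, control sgRNA and Son sgRNA arms (adjusted p = 0.000339, 0.0123 and 0.0155). In the CRISPRa arms the call was lost without control library B in DMSO (adjusted p = 0.0555), without Son sgRNA library C in tunicamycin (adjusted p = 0.0631) and, for the Son sgRNA label, with only those groups in the fit (adjusted p = 0.0968). Srpk2 was called lower in both siRNA arms and was not called in the CRISPRa arms. It fell from 10.2 ± 0.201 to 9.15 ± 0.392 FPKM with control siRNA (−0.15, SE 0.0321, adjusted p = 0.000641) and from 11.0 ± 0.303 to 10.1 ± 0.228 with Son siRNA (−0.11, SE 0.0321, adjusted p = 0.00492). With control sgRNA it stood at 14.1, 14.1 and 13.7 FPKM in DMSO and at 15.8, 14.4 and 15.01 in tunicamycin (0.10, SE 0.0661, adjusted p = 0.249). The fall in the siRNA system was without overlap, and in the control sgRNA arm every tunicamycin library was above every DMSO library, though the test was not passed. It was passed there with only those groups in the fit (adjusted p = 0.044) and without both extreme libraries (adjusted p = 0.0315), while under median-ratio scaling the estimate was 0.04 (adjusted p = 0.637). Under the Son sgRNA label Srpk2 stood at 15.85 ± 1.34 FPKM in DMSO and 16.92 ± 0.970 in tunicamycin, with overlapping libraries (0.09, adjusted p = 0.270). The responses with control siRNA and control sgRNA differed for Srpk2 by −0.25 (adjusted p = 0.0104), and by −0.13 under median-ratio scaling (adjusted p = 0.181).

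Dyrk1a rose in the 4 arms by 14.3%, 10.1%, 20.9% and 18.9% of the DMSO mean (log2 fold changes 0.18, 0.13, 0.26 and 0.23, adjusted p = 5.74e-05, 0.00134, 0.0128 and 0.0169). Under the Son sgRNA label that call was lost without tunicamycin library A (adjusted p = 0.0701) or C (adjusted p = 0.0657) and with only those groups in the fit (adjusted p = 0.101). Dyrk1b, its close relative, fell instead. The mean dropped from 6.38 ± 0.684 to 4.998 ± 0.613 FPKM with control siRNA (−0.30, SE 0.0747, adjusted p = 0.00184) and from 7.01 ± 0.392 to 5.48 ± 0.415 with Son siRNA (−0.31, SE 0.0747, adjusted p = 0.00169). Control sgRNA cells showed 12.95 ± 0.620 and then 10.95 ± 0.630 FPKM (−0.22, SE 0.059, adjusted p = 0.0105), and libraries labelled Son sgRNA 14.1 ± 0.373 and then 10.96 ± 0.594 (−0.34, SE 0.059, adjusted p = 0.000683). All tunicamycin libraries of an arm were below all its DMSO libraries, and with control sgRNA the call was lost without library B in DMSO (adjusted p = 0.0556) or A in tunicamycin (adjusted p = 0.0511). Prpf4b rose by 0.12 and 0.15 in the siRNA arms (adjusted p = 0.00416 and 0.000848). In the CRISPRa arms its estimates of 0.21 and 0.31 had an SE of 0.146 and did not pass (adjusted p = 0.295 and 0.101), beside a single low library of 9.91 FPKM (Son sgRNA in DMSO, C) against at least 15.93 FPKM in the other 2 libraries of that group. Without both extreme libraries, Prpf4b was called at 0.21 and 0.20 (adjusted p = 0.000675 and 0.00317). It was also called with only the control sgRNA groups in the fit (adjusted p = 0.0011), without Son sgRNA DMSO library C (0.21 with control sgRNA, adjusted p = 0.0331), and under the Son sgRNA label without DMSO library A or B or tunicamycin library B (0.41 each, adjusted p = 0.0394, 0.0486 and 0.0495).

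**Figure D2:**
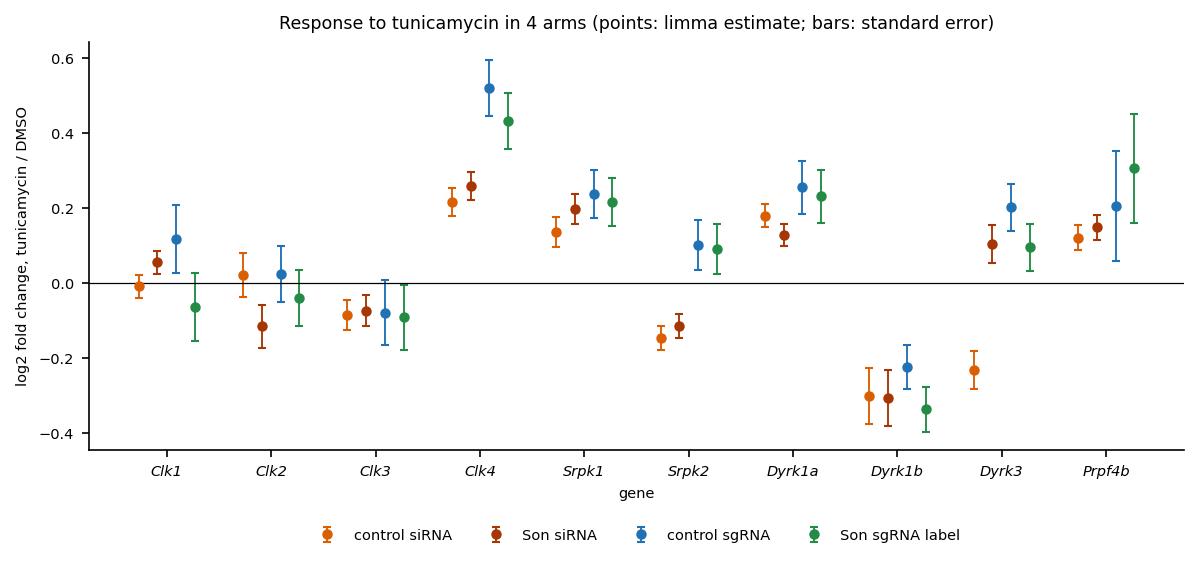
Log2 fold change of each kinase between tunicamycin and DMSO in the 4 arms, as limma estimates on log2(FPKM + 1) with standard errors. Clk4, Srpk1 and Dyrk1a lie above 0 and Dyrk1b below 0 in all arms, while Dyrk3 lies at −0.23 with control siRNA and at 0.20 with control sgRNA.

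Dyrk3 was the kinase that was called lower with tunicamycin in 1 arm and higher in another. With control siRNA it fell from 9.82, 8.53, 8.21 and 8.19 FPKM to 7.91, 7.19, 7.04 and 6.86 (−0.23, SE 0.0507, adjusted p = 0.000672). With Son siRNA it had 8.79, 8.82, 8.48 and 8.59 FPKM in DMSO and 9.56, 9.92, 8.97 and 9.13 in tunicamycin, all higher (0.10, SE 0.0507, adjusted p = 0.0821). The difference of these responses was 0.33 (SE 0.0717, adjusted p = 0.0327), and 1.68% of all genes were called in that test. It was the only kinase called, with 1 of 10. The call was lost without any filter on low values (adjusted p = 0.0654) and without control siRNA library A in DMSO (0.28, adjusted p = 0.0523) or C in tunicamycin (0.32, adjusted p = 0.0513). It was also lost without any 1 of Son siRNA libraries B, C and D in DMSO or A, B and D in tunicamycin (0.31 to 0.35, adjusted p = 0.0564 to 0.0712). The rise with Son siRNA alone passed the threshold under median-ratio scaling (0.14, adjusted p = 0.023), with only those groups in the fit (adjusted p = 0.0227) and without control library A in DMSO (adjusted p = 0.0312).

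In the CRISPRa system Dyrk3 rose with tunicamycin in the control arm from 3.84, 3.81 and 4.21 FPKM to 4.89, 4.54 and 4.66 (0.20, SE 0.0621, adjusted p = 0.0229). Under the Son sgRNA label it had 5.17, 5.02 and 5.78 FPKM in tunicamycin, all above DMSO (0.10, adjusted p = 0.217). The call with control sgRNA did not hold under median-ratio scaling (0.15, adjusted p = 0.0524) or without control library A or B in DMSO or A or C in tunicamycin (adjusted p = 0.0567 to 0.0887). In 1 fit over all 28 FPKM libraries, added after the data were seen, the tunicamycin response of Dyrk3 was lower with control siRNA than with control sgRNA by 0.43 on the log2 scale (−0.43, SE 0.0782, adjusted p = 0.000435). Clk4 (−0.30, SE 0.0774, adjusted p = 0.0079) and Srpk2 (−0.25) were called in the same direction, and the other 7 kinases were not, when 20.2% of 11131 genes were called. Under median-ratio scaling Dyrk3 was still called (−0.32, adjusted p = 0.00479), whereas Clk4 (−0.18, adjusted p = 0.0736) and Srpk2 were not. What sets the systems apart was not tested.

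The Son sgRNA label went with few called kinases. In DMSO 1 kinase rose and none fell (14.4% of all genes called). That was Dyrk3, with 3.84, 3.81 and 4.21 FPKM in control libraries and 4.99, 4.802 and 4.95 in the labelled ones (0.26, SE 0.0621, adjusted p = 0.0181). The libraries did not overlap, and the call was lost without control library A (adjusted p = 0.0719) or B (adjusted p = 0.0816) and with only those groups in the fit (adjusted p = 0.0645). In tunicamycin none of the kinases was called by limma (9.45% of all genes called), and 2 of them, Srpk2 and Dyrk3, had an unadjusted p under 0.05 (0.0334 and 0.0332, both with all labelled libraries above the controls). Library C in DMSO stood apart for several of them, with 33.9 FPKM of Clk1 against 26.3 and 28.8, 16.8 of Clk3 against 13.2 and 12.4, and 9.91 of Prpf4b. Without both extreme libraries 6 kinases were called in DMSO, when 28.8% of 11227 genes were, and 5 in tunicamycin (29.4%). The same omission gave 8 kinases called for tunicamycin with control sgRNA (62.3% of genes) and 6 under the Son sgRNA label (60.8%). Between the Son sgRNA label and control sgRNA, the kinases called with that omission in DMSO and in tunicamycin included Clk3 (−0.28 and −0.16, adjusted p = 0.00102 and 0.0165). Srpk2 (0.238 and 0.205, adjusted p = 0.00182 and 0.00394) and Prpf4b (0.21 in both, adjusted p = 0.00401 and 0.00434) were also among them. With only library C left out, Clk3 and Srpk2 were called in DMSO (−0.28 and 0.24, adjusted p = 0.00216 and 0.0104) and in tunicamycin (−0.17 and 0.16, adjusted p = 0.0163 and 0.037), and without library A Clk1 was called in DMSO (0.31, adjusted p = 0.0325). Beside this, 5 of 7 fibroblast markers were lower under the Son sgRNA label in DMSO and 4 of 7 in tunicamycin (5 and 3 after median-ratio scaling), Col3a1 at 27.1 ± 2.36 against 95.8 ± 4.43 FPKM in DMSO, and Tubb3 was higher in DMSO by 0.39 on the log2 scale. Their part was not tested. The difference of tunicamycin responses between these arms called no kinase, and 0% of all genes (908 at an unadjusted p under 0.05).

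**Figure D3:**
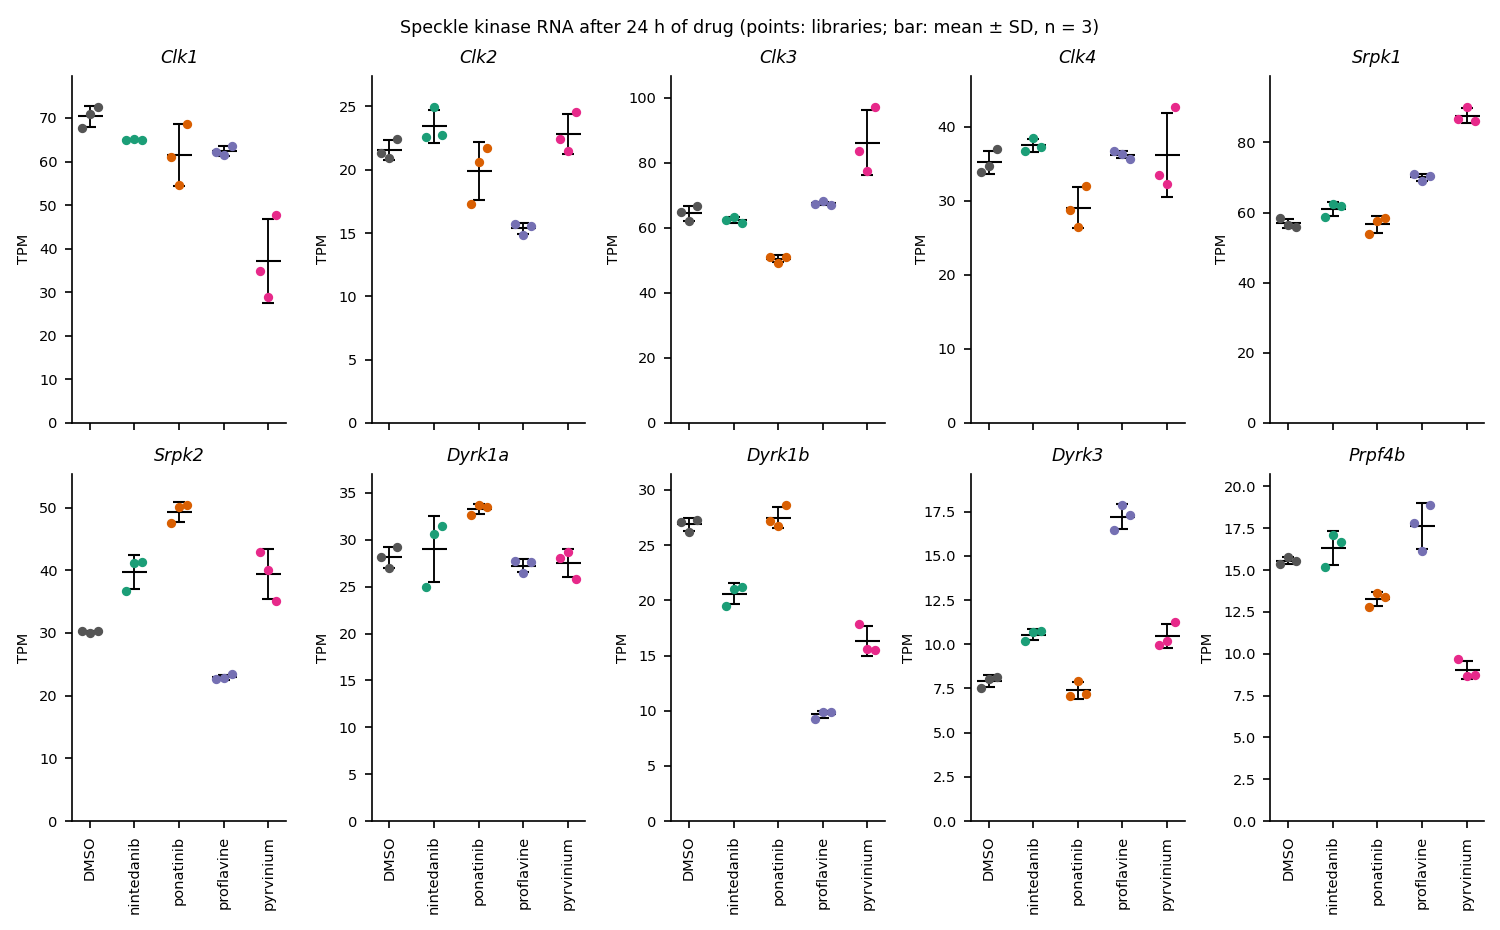
TPM of the 10 kinases in each of 3 libraries per drug group after 24 h, with bars for mean ± SD. Proflavine libraries have the lowest Dyrk1b (9.29 to 9.87 TPM) and the highest Dyrk3 (16.4 to 17.9 TPM), pyrvinium libraries the lowest Clk1 and Prpf4b and the highest Srpk1, and ponatinib libraries the highest Srpk2 (47.5 to 50.4 TPM).

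The 4 drugs each changed a different combination of the kinases. Against the same 3 DMSO libraries, which all these comparisons share, nintedanib raised 3 and lowered 1 (56.4% of 12132 genes called), ponatinib raised 2 and lowered 3 (62.5%), proflavine raised 3 and lowered 3 (70.1%), and pyrvinium raised 4 and lowered 3 (77.3%). These shares lie under those of all genes. Of 8 fibroblast markers tested, 4, 4, 6 and 8 fell and 3, 3, 2 and 0 rose in the same order. Cd68 rose with all 4 drugs (1.19, 1.26, 0.69 and 0.98 on the log2 scale). Lyz2, the other of 2 macrophage markers tested, had 0.31 TPM in DMSO and 3.12, 2.06, 0.04 and 0.156 TPM with the drugs. It was called higher with nintedanib and ponatinib, lower with proflavine and neither with pyrvinium. Ptprc, Adgre1 and Csf1r were too low to be tested (group means at most 0.139 TPM). Krt18 rose with nintedanib and proflavine (0.31 and 1.49) and fell with ponatinib and pyrvinium (−0.59 and −1.10), while Tubb3 rose with nintedanib (0.665) and fell with pyrvinium (−0.46). The part of these markers was not tested. The median size of change without regard to sign was 0.11, 0.21, 0.23 and 0.39 on the log2 scale for the kinases and 0.20, 0.24, 0.30 and 0.40 for all genes. With ponatinib, median-ratio scaling moved the median of all genes by −0.10 on the log2 scale, and the kinases called then went from 2 raised and 3 lowered to 2 raised and 6 lowered (64.5% of all genes called).

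Proflavine gave the largest changes of single kinases. Dyrk1b, which promotes quiescence and muscle differentiation, had 27.1, 26.2 and 27.3 TPM in DMSO and 9.29, 9.87 and 9.85 TPM with proflavine. That is a fall of 64.0% with no overlap (log2 fold change −1.39, SE 0.0581, adjusted p = 2.74e-11). Dyrk3, the kinase that dissolves condensates, went the other way, from 7.52, 8.04 and 8.17 TPM to 16.4, 17.9 and 17.3 TPM, 2.18 times the DMSO mean (1.03, SE 0.0631, adjusted p = 1.55e-09). Dyrk1a stood at 28.15 ± 1.1 and 27.3 ± 0.698 TPM, with overlapping libraries (−0.04, SE 0.0697, adjusted p = 0.586). The DYRK genes thus fell, rose and overlapped under the same drug.

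In the other families proflavine lowered Clk2 from 21.6 ± 0.764 to 15.4 ± 0.453 TPM (−0.46, SE 0.074, adjusted p = 4.91e-05) and Srpk2 from 30.2 ± 0.140 to 22.9 ± 0.407 TPM (−0.38, SE 0.0633, adjusted p = 6.93e-05). It raised Srpk1 from 56.9 ± 1.30 to 70.1 ± 0.995 TPM (0.30, SE 0.0389, adjusted p = 6.79e-06). The SRPK genes therefore moved apart, with no overlap of libraries in either. Prpf4b rose from 15.5 ± 0.211 to 17.6 ± 1.37 TPM (0.17, adjusted p = 0.0298), a call lost when any 1 of the DMSO libraries, proflavine library 1 or proflavine library 3 was left out (0.12 to 0.18, adjusted p = 0.0514 to 0.140). Clk1, Clk3 and Clk4 were not called (−0.17, 0.06 and 0.04, adjusted p = 0.231, 0.350 and 0.674). Clk1 was called without pyrvinium library 3 (−0.17, adjusted p = 0.0479) and with only the groups compared (adjusted p = 0.00156), while under median-ratio scaling the estimate was −0.08 (adjusted p = 0.634).

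Pyrvinium lowered Clk1, the most abundant of these kinases in untreated WT cells, from 67.8, 70.8 and 72.5 TPM to 34.9, 28.9 and 47.8 TPM. Every treated library was below every control, library 3 less so (−0.93, SE 0.124, adjusted p = 5.77e-06). Clk4 overlapped, at 33.9, 34.6 and 36.9 TPM in DMSO and 33.5, 32.2 and 42.6 TPM with pyrvinium (0.03, SE 0.0855, adjusted p = 0.775). Clk3 rose from 64.8, 62.1 and 66.7 TPM to 83.7, 77.6 and 97.1 TPM (0.41, SE 0.0595, adjusted p = 1.67e-05). Library 3 was the highest of the pyrvinium libraries for Clk1, Clk2, Clk3 and Clk4. The same held for library 3 of the DMSO and ponatinib groups, but not for each of these genes with nintedanib or proflavine. Prpf4b, the spliceosome kinase, fell from 15.3, 15.8 and 15.5 TPM to 9.68, 8.68 and 8.74 TPM (−0.72, SE 0.0643, adjusted p = 6.23e-08). Srpk1 rose from 58.4, 56.5 and 55.9 TPM to 86.8, 90.1 and 86.0 TPM, 1.54 times the DMSO mean (0.61, SE 0.0389, adjusted p = 1.11e-09). Both changes were without overlap. Srpk2 and Dyrk3 rose by 30.3% and 32.5% (0.37 and 0.36, adjusted p = 8.48e-05 and 8.58e-05), Dyrk1b fell from 26.9 ± 0.593 to 16.3 ± 1.34 TPM (−0.69, SE 0.0581, adjusted p = 3.09e-08), and Clk2 and Dyrk1a were not called (0.08 and −0.03). Son itself fell from 98.4 ± 1.33 to 69.3 ± 6.41 TPM with pyrvinium (−0.50, SE 0.0884, adjusted p = 9.74e-05). It was also called lower with nintedanib (84.7 ± 13.3 TPM, −0.23, adjusted p = 0.0406), where library 1 had 69.4 TPM. That call was lost with only the groups compared (adjusted p = 0.094). With ponatinib (89.7 ± 3.38 TPM) Son was called lower under median-ratio scaling (−0.24, adjusted p = 0.00453). Whether the fall of Son had a part in the changes with any of these drugs was not tested.

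Ponatinib raised Srpk2, which prepares SR proteins for nuclear import, from 30.3, 30.1 and 30.2 TPM to 47.5, 50.1 and 50.4 TPM, 1.63 times the DMSO mean (0.69, SE 0.0633, adjusted p = 2.36e-07). No other kinase moved as far with this drug. Dyrk1a rose from 28.15 ± 1.1 to 33.3 ± 0.572 TPM (0.23, SE 0.0697, adjusted p = 0.00875), and Clk3 fell from 64.5 ± 2.30 to 50.5 ± 1.11 TPM (−0.35, SE 0.0595, adjusted p = 0.000127). Clk4 fell from 35.2 ± 1.56 to 29.1 ± 2.82 TPM (−0.27, SE 0.0855, adjusted p = 0.0127), a call lost without DMSO library 3 (adjusted p = 0.0521) or ponatinib library 2 (adjusted p = 0.0706). Prpf4b fell from 15.5 ± 0.211 to 13.3 ± 0.417 TPM (−0.21, SE 0.0643, adjusted p = 0.00961). After median-ratio scaling the same kinases were called with log2 fold changes of 0.58 (Srpk2), 0.13 (Dyrk1a), −0.455 (Clk3), −0.37 (Clk4) and −0.31 (Prpf4b), and Clk2 (−0.22), Dyrk3 (−0.18) and Srpk1 (−0.115) were called lower as well. Clk1 was at 61.0, 54.6 and 68.7 TPM (−0.20, adjusted p = 0.177) and was called without pyrvinium library 3 (adjusted p = 0.0274) and with only the groups compared (adjusted p = 0.0358), but not under median-ratio scaling (−0.305, adjusted p = 0.0783).

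Nintedanib raised Srpk2 from 30.2 ± 0.140 to 39.7 ± 2.67 TPM (0.38, SE 0.0633, adjusted p = 0.000113) and Dyrk3 from 7.91 ± 0.346 to 10.5 ± 0.325 TPM (0.37, SE 0.0631, adjusted p = 0.000129). Dyrk1b fell from 26.9 ± 0.593 to 20.6 ± 0.963 TPM (−0.37, SE 0.0581, adjusted p = 6.65e-05). None of these overlapped with DMSO. Srpk1 rose from 56.9 ± 1.30 to 61.0 ± 2.00 TPM (0.10, SE 0.0389, adjusted p = 0.0424), and this call was lost under median-ratio scaling (0.02, adjusted p = 0.597), with only the groups compared (adjusted p = 0.074) and without any 1 of 8 libraries: DMSO 2 or 3, nintedanib 2 or 3, ponatinib 2, or proflavine 1, 2 or 3 (0.08 to 0.10, adjusted p = 0.0514 to 0.135). The 4 CLK genes, Dyrk1a and Prpf4b were not called (−0.11 to 0.11 on the log2 scale). Dyrk1a had 25.0 TPM in nintedanib library 1 and 30.6 and 31.5 in the others, and was called higher without library 1 (0.14, adjusted p = 0.0294). Clk1 was called lower with only the groups compared (−0.11, adjusted p = 0.0389), but not under median-ratio scaling (−0.19, adjusted p = 0.278).

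Setting the drugs directly against each other gave 46 calls in 60 tests of a kinase in a pair of drugs, with p adjusted over all genes and the 6 pairs. Nintedanib against ponatinib, which differ in dose (3 and 1 µM), had 9 of 10 kinases called when 61.7% of genes were. Of the pairs at equal dose, nintedanib against proflavine (3 µM) had 5 of 10 called (75.6% of genes), and ponatinib against pyrvinium (1 µM) had 10 of 10 (77.5%). The other pairs differ in dose: nintedanib against pyrvinium had 5 (78.5%), ponatinib against proflavine 9 (78.8%) and proflavine against pyrvinium 8 (77.6%). Between the tyrosine kinase inhibitors, nintedanib had less Srpk2 than ponatinib (39.7 and 49.4 TPM, log2 difference −0.31, SE 0.0633, adjusted p = 0.000423) and less Dyrk1b (20.6 and 27.5 TPM, −0.40, SE 0.0581, adjusted p = 1.51e-05). It had more Dyrk3 (10.5 and 7.39 TPM, 0.46, SE 0.0631, adjusted p = 8.42e-06) and more Clk4 (37.5 and 29.1 TPM, 0.36, SE 0.0855, adjusted p = 0.00139). Clk1 was the exception, with a difference of 0.09 and a 95% interval of −0.18 to 0.35. At 3 µM, nintedanib and proflavine differed by 1.02 in Dyrk1b (SE 0.0581) and by 0.76 in Srpk2 (SE 0.0633), nintedanib being higher in both. At 1 µM, ponatinib had less Clk3 than pyrvinium (50.5 and 86.1 TPM, −0.75, SE 0.0595, adjusted p = 1.71e-08) and more Clk1 (61.4 and 37.2 TPM, 0.73, SE 0.124, adjusted p = 7.01e-05). Across the drug groups, Dyrk3 ran from 7.39 TPM (ponatinib) to 17.2 TPM (proflavine), and nintedanib and pyrvinium, at 10.5 TPM each, overlapped (difference 0.01, 95% interval −0.13 to 0.14).

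**Figure D4:**
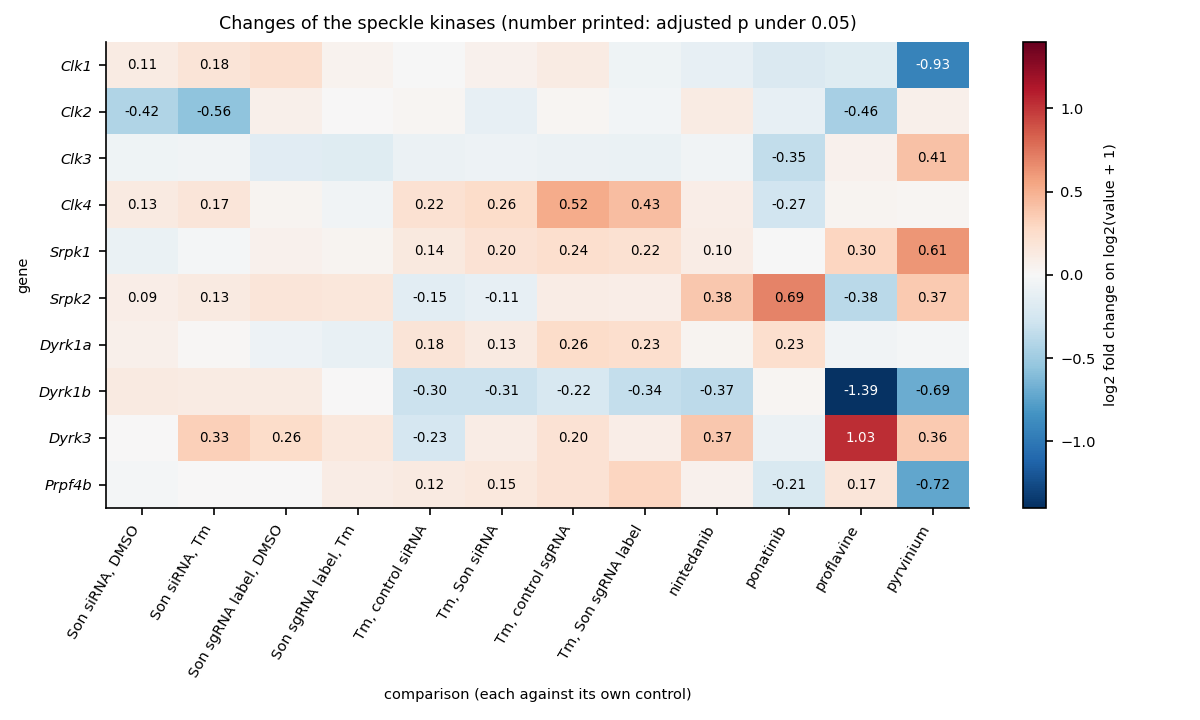
Log2 fold change on log2(value + 1) of each kinase in 12 comparisons, red for higher and blue for lower than the control of that comparison, with the number printed where the adjusted p was under 0.05. The darkest cells are proflavine for Dyrk1b (−1.39) and Dyrk3 (1.03) and pyrvinium for Clk1 (−0.93).

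Relatives and partners of these kinases are given by the number called, to be read against all genes tested. With nintedanib, ponatinib, proflavine and pyrvinium 34.3%, 41.1%, 27.8% and 36.6% of all genes rose and 22.1%, 21.4%, 42.4% and 40.8% fell. With tunicamycin 26.6%, 26.1%, 24.2% and 22.7% rose and 42.4%, 41.1%, 14.1% and 26.6% fell in the arms with control siRNA, Son siRNA, control sgRNA and the Son sgRNA label. With Son siRNA 20.0% rose and 16.1% fell in DMSO, and 30.6% rose and 20.4% fell in tunicamycin. Of 12 measured SR proteins, the main substrates, none rose with nintedanib, ponatinib or pyrvinium, and 9, 10 and 9 fell (11, 11 and 9 after median-ratio scaling, when 1 rose with pyrvinium). With pyrvinium, Srsf3, an SR protein that also promotes mRNA export, fell from 311 ± 2.91 to 121 ± 21.9 TPM (−1.37, adjusted p = 1.17e-09), and Srsf1, a founding SR protein, from 191 ± 3.71 to 83.0 ± 10.9 TPM (−1.20, adjusted p = 2.55e-10). Their median log2 fold change was −0.63 against −0.03 over all genes. Ponatinib lowered Tra2a, an SR-like splicing activator, from 178 ± 1.90 to 116 ± 2.16 TPM (−0.61, adjusted p = 1.75e-09). With proflavine 2 SR proteins rose and 2 fell, or 6 and 1 after median-ratio scaling. Tunicamycin raised 7 and lowered 2 with control siRNA, raised 6 and lowered 2 with Son siRNA (9 and 1 after scaling), raised 7 and lowered none with control sgRNA (6 and 2 after scaling), and raised 3 and lowered 3 in libraries labelled Son sgRNA (5 and 3 after scaling). Son siRNA raised 3 in DMSO and 4 in tunicamycin and lowered none (2 and 3 after scaling), Srsf4 from 37.2 ± 0.799 to 42.3 ± 0.588 FPKM in DMSO among them (0.18, adjusted p = 0.0002).

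Of 5 chaperone genes whose products bind SRPK, 4 rose and none fell with proflavine (5 and none after scaling), Hsp90aa1 from 997 ± 25.6 to 1487 ± 70.8 TPM (0.58, adjusted p = 4.66e-10). With nintedanib 3 fell and none rose (4 and none after scaling), Ahsa1, an HSP90 activator, from 189 ± 3.41 to 136 ± 5.08 TPM (−0.48, adjusted p = 3.7e-08). With ponatinib 1 rose and 3 fell (none and 3 after scaling), and with pyrvinium 1 rose and 2 fell. Tunicamycin lowered Hspa8, the constitutive HSP70, in every arm, by 0.81, 0.63, 0.83 and 0.97 on the log2 scale. Of the 5 genes it lowered 4, 2, 3 and 4 and raised none (3, 1, 3 and 5 lowered and none raised after scaling). Of 6 genes for the import and dephosphorylation of SR proteins, nintedanib lowered 4 and ponatinib 3 (5 each after scaling) and neither raised any, proflavine raised 3 and lowered 2, and pyrvinium raised 1 and lowered 4, Ppp1cc, a catalytic subunit of protein phosphatase 1, from 342 ± 12.9 to 198 ± 10.3 TPM (−0.78, adjusted p = 5.33e-11). Tunicamycin raised Ppp1r8, a nuclear inhibitor of that phosphatase, in every arm, by 0.31, 0.32, 0.37 and 0.21. Ppp1ca, of the same list, fell by 0.25, 0.20 and 0.32 with control siRNA, Son siRNA and the Son sgRNA label. Of the 6, tunicamycin raised 3, 3, 1 and 1 and lowered 3, 3, none and 2 (raised 3, 3, 1 and 2 and lowered 2, 3, none and 2 after scaling). Among 6 partners of PRP4 and DYRK1A, Lin52, the DREAM subunit that DYRK1A phosphorylates, rose with tunicamycin in every arm, from 6.25 ± 0.389 to 10.02 ± 0.0994 FPKM with control siRNA (0.605, adjusted p = 1.61e-08) and by 0.54, 0.54 and 0.50 in the others. It also rose with ponatinib and pyrvinium (0.47 and 0.56). Sf3b1, of the same list, fell with nintedanib and pyrvinium (−0.24 and −0.58, adjusted p = 0.000784 and 3.65e-08). Of the 6, none rose and 3 fell with nintedanib (none and 5 after scaling), and 2 rose and 2 fell with ponatinib (2 and 4). With proflavine 2 rose and 2 fell (4 and 1), and with pyrvinium 1 rose and 3 fell. Tunicamycin raised 2 in each arm and lowered 1, 1, none and 1 (raised 3, 2, 1 and 2 and lowered 1, 1, 2 and 1 after scaling). Prpf31, a spliceosome protein that PRP4 phosphorylates, fell with Son siRNA from 20.9 ± 1.26 to 16.8 ± 0.265 FPKM in DMSO (−0.30, adjusted p = 1.45e-05) and rose with proflavine from 33.6 ± 0.450 to 48.3 ± 1.30 TPM (0.51, adjusted p = 3.78e-08). Of these 6 partners, Son siRNA raised 3 and lowered 1 in DMSO (2 and 2 after scaling) and raised 2 and lowered 2 in tunicamycin. Of 8 related kinases tested with the drugs, Dyrk2 rose with pyrvinium from 8.58 ± 0.198 to 12.8 ± 0.903 TPM (0.52, adjusted p = 0.000656), where 4 rose and 3 fell in all. Hipk1, a kinase of the neighbouring family, rose with tunicamycin from 16.4 ± 0.719 to 19.8 ± 0.163 FPKM with control siRNA (0.26, adjusted p = 5.2e-07), where 4 of 7 rose and 3 fell (4 and 1 after scaling). Hipk2, of the same list, fell there from 8.49 ± 0.381 to 7.24 ± 0.672 FPKM (−0.207, adjusted p = 0.00218). With Son siRNA 3 rose and 3 fell (4 and 2 after scaling). None was called with control sgRNA, and 2 rose and none fell under the Son sgRNA label. For all these lists limma's test over all genes stands behind each call, and the lists were chosen with earlier results known.

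Likeness of pattern was measured as the root mean square distance of log2 group means, centred within each system, over the 13 groups and 10108 genes tested in all systems. The genes nearest to Clk1 were Rpa2 (0.0477), Larp7 (0.055) and Arl16 (0.0593), when the median gene was at 0.292, and the nearest of the other kinases was Prpf4b at 0.126. For Clk4 the nearest were Sec24a (0.068), Zfp35 (0.0735) and Scyl2 (0.0754), and the nearest kinase was Dyrk1a at 0.160. Clk1 and Clk4 were therefore not each other's nearest kinase by this measure.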

How the data were processed

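RNA was sequenced from 43 libraries in 13 groups. The authors deposited FPKM for 28 siRNA and CRISPRa libraries and TPM for 15 drug libraries, as their tables are named. Listed in the submitters' processing notes are mm10, Trimmomatic, Trim Galore, HISAT2, Salmon and Cufflinks, without versions, and it is not stated which made which table. FPKM columns carry letters and were placed by group name: scrambled columns as control siRNA, and the other control columns as control sgRNA. Of repeated symbols (275 on 807 lines of FPKM) the highest line was kept, and 27 symbols turned into dates were left out. Reads behind a value are unknown, so no counting interval is given.

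Tests and fold changes use log2(value + 1), on which changes of low genes come out too small. Genes with a mean of at least 1 in a system were fitted with limma 3.58.1 in R 4.3.3 (a term per group, mean trend, no block): 10883, 11218 and 12132 genes. Tests are two-sided, p was adjusted by Benjamini-Hochberg over all genes of a comparison (direct drug tests over genes and the 6 pairs together), and a gene was called under 0.05. The TPM columns are tagged brep, which may stand for biological replicates, but the tag names no cultures. Since the labels name no separate cultures, p-values reflect the spread among libraries, which may be technical. The fit was tested on simulated data. The kinases and lists were chosen with earlier results of these data known. By rule the text names the 10 kinases and Son, at most 2 called genes of largest change per list and comparison with a mean of at least 5, and the 3 genes nearest in pattern to Clk1 and Clk4. The fit over both FPKM systems, the omission of the 2 extreme CRISPRa libraries and a block on the column letter were added after the data were seen.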

Additional observations from a re-analysis of the deposited data

Results flagged for a closer look

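In the control siRNA DMSO group, Clk2 had 12.55 FPKM in library B, far above the other 3 libraries at 11.26 to 11.46 FPKM. This was 1 of 44 sets of 4 values checked (the 10 kinases and Son in each siRNA group), and chance alone flags about 1 in 20. The sets come from the same 16 libraries and are not independent.

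The tunicamycin response of Dyrk3 differed between Son siRNA and control siRNA by 0.334 on the log2 scale (SE 0.0717, adjusted p = 0.0327, limma interaction term). The tunicamycin responses with control siRNA and control sgRNA differed by −0.432 for Dyrk3, −0.302 for Clk4 and −0.249 for Srpk2 (limma, adjusted p = 0.000435, 0.0079 and 0.0104). Under median-ratio scaling the differences of Clk4 and Srpk2 no longer passed (−0.18 and −0.129, adjusted p = 0.0736 and 0.181).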

How the results depend on the processing

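For single kinases, 1941 of 2000 values kept direction and side of the threshold when 1 library was left out, 40 lost and 19 gained a call, and none reversed. A pseudocount of 0.1 kept all 140 values, no filter on low values 139, median-ratio scaling 133 (2 lost, 5 gained), and fits of only the groups compared 109 of 120. The count of kinases called with libraries labelled Son sgRNA in DMSO (1) ran from 0 to 3 when 1 library was left out, was 0 with only those groups and 6 without both extreme libraries. In tunicamycin (0) it ran from 0 to 2 and was 5 without both. For the difference of tunicamycin responses with Son siRNA (1) it ran from 0 to 1 and was 0 without a filter. For tunicamycin with control sgRNA (5) it ran from 2 to 6, and was 8 with only those groups and 8 without both extreme libraries. In the arm labelled Son sgRNA (4) it ran from 2 to 5 and was 2 with only those groups, and Clk1 reversed there to 0.126 (adjusted p = 0.0418) without both. With ponatinib (5) it was 8 under median-ratio scaling. That scaling moved the share of called genes that rose from 65.8% to 49.5% with ponatinib, 60.8% to 47.6% with nintedanib, 38.5% to 48.7% for tunicamycin with control siRNA, 63.2% to 49.7% with control sgRNA, 63.3% to 45.2% and 27.4% to 41.9% for the Son sgRNA label in DMSO and tunicamycin, and 49.2% to 38.1% for the difference with Son siRNA.

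The letters of the FPKM columns are not tied to the numbers in the labels, and libraries of 1 letter did not deviate together (correlations of −0.189 to 0.174, 3 of 24 over 0.1, in the siRNA system and −0.223 to 0.182, 1 of 18, in the CRISPRa system). Same-numbered drug libraries did not either (−0.0667 to 0.147, 2 of 30). A library correlated best with its own letter or number in 4 of 16, 4 of 12 and 5 of 15 cases. No pairing was thus seen over all genes, which does not exclude one. For the CLK genes, library 3 was the highest in the DMSO, ponatinib and pyrvinium groups alike. With the letter as a replicate block, added after the data were seen, 99 of 100 values were called as before, and Dyrk3 gained a call for tunicamycin with Son siRNA (0.10, adjusted p = 0.0272). With the number as a replicate block 39 of 40 drug values were called as before, Srpk1 with nintedanib being lost (adjusted p = 0.0577), and the 46 direct calls between drugs stayed 46. The unknown read depth limits what can be said of small changes.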
